A study of Mus musculus with 24 samples.

Results

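PU.1 sites that lay outside both H3K4me1 islands and open chromatin made up the largest class of consistently bound PU.1 sites in wild-type progenitors, 41518 of 110341. PU.1 islands of the 3 Utx WT libraries were merged on the 19 autosomes, and a merged region was kept as a site when all 3 libraries had an island in it. A site was called unmarked when it shared no base with an H3K4me1 island of either Utx WT library, and closed when it shared none with an ATAC peak of the 4 Utx WT libraries with empty vector. The 41518 unmarked closed sites were 37.6% of all sites, beside 29901 marked closed, 3510 unmarked open and 35412 marked open sites. The Utx WT lists chose these sites, so their Utx WT values are given as a description.

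PU.1, encoded by Spi1, is an ETS family transcription factor that binds a purine-rich motif with a GGAA core and directs myeloid and B cell development. It can bind DNA in closed chromatin, and together with partner factors it takes part in opening enhancers, where H3K4me1 is the histone mark laid down early. Utx, encoded by Kdm6a, removes methyl groups from H3K27 and works within complexes that methylate H3K4. Smarca4 (also Brg1) is a motor of the BAF remodelling complex and Chd4 that of the NuRD complex.

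The cells were lineage-negative bone marrow progenitors of C57BL/6 mice, which hold stem cells and progenitors of all blood lineages. PU.1 was mapped by ChIP-seq in 3 Utx KO and 3 Utx WT libraries and H3K4me1 in 2 and 2. ATAC-seq, which marks open chromatin, was run on cells that carried Cas9, in 2 libraries per group: set B held Utx KO cells with Smarca4 gRNA, Utx KO cells with empty vector, Utx WT cells with Smarca4 gRNA and Utx WT cells with empty vector, and set A held Utx WT cells with Chd4 gRNA and with empty vector. The labels of set A describe 7 days in semi-solid medium, 5 days in liquid culture and ATAC-seq 6 days after editing, in a text on Brg1 editing, while the labels of the ChIP samples mention no culture, so openness and PU.1 were not read in the same cells. Neither the way Utx was deleted nor the ages or number of mice are given in the labels, and a peak list cannot tell whether the targeted gene is gone. Nothing states that libraries came from separate mice, so the spread between libraries may be technical. Each PU.1 list held 134140 to 166141 autosomal islands with 20.4 to 27.8 M reads in islands, each H3K4me1 list 42821 to 53534 islands and each ATAC list 24268 to 49704 peaks. H3K4me1 of Utx WT replicate 2 stood apart, with 14.2 M island reads over 284 Mb against 6.93 M over 201.1 Mb in Utx WT replicate 1, and much of what is called unmarked rests on it.

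Promoter sequences were at hand for a few of these sites. Of the 300 bp promoter windows of RefSeq genes (250 bases before and 50 after the gene's start), 215 lay wholly inside 203 unmarked closed sites. The PU.1 motif GAGGAAGT, searched on both strands, was in 34 of them (15.8%), against 10.2% of 578 windows inside marked closed sites, 6.47% of 139 inside unmarked open sites, 3.96% of 11397 inside marked open sites and 3.25% of all 31365 promoter windows. The shorter core GGAA was in 99.1% of the windows inside unmarked closed sites and in 95.9% of all windows, so it told the classes apart little. Windows in unmarked closed sites also had a lower median GC content, 47.7%, against 61.3% in marked open sites and 53.0% over all windows. How much of the motif shares goes with base content, or with site width, which also differs between the classes, was not tested. The windows below, printed from RefSeq in the strand of the gene on build GRCm38.p6, are 5 of the 8 motif-bearing windows with the highest PU.1 rank, among them that of Gm51802, whose site carried H3K4me1 in both Utx KO libraries. Capitals mark GAGGAAGT or its reverse complement ACTTCCTC.
Gm51858, chr11:34694791-34695090, plus strand: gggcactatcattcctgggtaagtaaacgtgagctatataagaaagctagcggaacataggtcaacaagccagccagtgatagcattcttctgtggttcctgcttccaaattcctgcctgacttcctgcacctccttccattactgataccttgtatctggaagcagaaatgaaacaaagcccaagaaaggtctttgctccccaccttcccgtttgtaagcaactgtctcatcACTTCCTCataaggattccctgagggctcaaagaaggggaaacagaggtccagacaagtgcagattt
1700054K19Rik, chr6:112210458-112210757, plus strand: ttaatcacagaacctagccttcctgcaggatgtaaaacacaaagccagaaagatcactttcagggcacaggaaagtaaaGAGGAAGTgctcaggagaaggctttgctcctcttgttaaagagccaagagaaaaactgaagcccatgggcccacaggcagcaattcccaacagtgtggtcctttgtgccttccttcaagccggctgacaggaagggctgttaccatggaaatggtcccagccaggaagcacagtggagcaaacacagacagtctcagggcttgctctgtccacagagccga
Itgb6, chr2:60673644-60673943, minus strand: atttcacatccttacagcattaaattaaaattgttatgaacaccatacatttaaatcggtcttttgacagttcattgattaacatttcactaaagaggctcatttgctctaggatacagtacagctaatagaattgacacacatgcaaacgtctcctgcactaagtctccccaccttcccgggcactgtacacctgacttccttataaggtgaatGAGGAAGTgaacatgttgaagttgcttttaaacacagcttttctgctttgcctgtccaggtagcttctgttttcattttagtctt
Svs2, chr2:164238292-164238591, minus strand: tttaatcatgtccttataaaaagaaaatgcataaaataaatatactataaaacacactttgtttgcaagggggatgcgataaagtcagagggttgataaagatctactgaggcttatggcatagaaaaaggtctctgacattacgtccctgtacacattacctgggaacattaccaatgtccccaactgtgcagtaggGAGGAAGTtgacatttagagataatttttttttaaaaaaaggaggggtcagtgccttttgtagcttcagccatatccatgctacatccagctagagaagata
Gm51802, chr10:60162342-60162641, minus strand: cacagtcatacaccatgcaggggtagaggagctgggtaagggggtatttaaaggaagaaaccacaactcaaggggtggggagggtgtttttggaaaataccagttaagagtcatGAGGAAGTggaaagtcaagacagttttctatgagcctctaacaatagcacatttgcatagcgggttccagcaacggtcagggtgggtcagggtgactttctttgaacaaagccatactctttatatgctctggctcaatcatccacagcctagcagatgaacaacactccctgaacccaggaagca

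Itgb6 encodes an integrin subunit of epithelial cells and Svs2 a seminal vesicle secretory protein. At the Itgb6 promoter the PU.1 island had 279, 195 and 295 reads in Utx KO libraries, against 189, 217 and 198 reads in Utx WT libraries. The Svs2 promoter had 232, 158 and 234 reads in Utx KO libraries, against 141, 162 and 174 reads in Utx WT libraries. At both the groups overlapped, and neither promoter had an ATAC peak in any Utx KO or guide RNA library. An H3K4me1 island lay at the Svs2 promoter in Utx KO replicate 1. The Gm51858 window had 316, 259 and 238 reads in Utx KO libraries, against 277, 330 and 327 reads in Utx WT libraries. At 1700054K19Rik the counts were 295, 226 and 264 in Utx KO libraries, against 246, 256 and 222 in Utx WT libraries. The Gm51802 window had 136, 102 and 103 reads in Utx KO libraries, against 120, 186 and 135 reads in Utx WT libraries. The groups overlapped at these 3 windows too. Reads here are the whole number that the deposited list gives for each island, not scaled for depth, and its role as a read count is inferred from the file format.

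The unmarked closed sites were narrow and low in their lists. Their median width was 599 bp, against 999 bp for marked closed, 799 bp for unmarked open and 1599 bp for marked open sites. Ranked by reads within its own list, where percentile 100 is the strongest island, the median site stood at percentile 39.96 as a mean of the 3 Utx WT libraries, against 59.5, 52.1 and 79.4 in the other classes in the same order. Ranked by reads per kb, which takes width out, the medians were 48.1, against 58.1, 53.5 and 68.6. Only 0.947% of the unmarked closed sites were in the top 10% of the lists, against 29.0% of marked open sites. The median number of reads at an unmarked closed site was 68, 75 and 69 in the 3 Utx WT libraries, with the lowest at 19, 22 and 20 reads and the highest at 1428, 1455 and 1590 reads. Together these sites took 17.4%, 17.6% and 17.1% of all island reads in Utx KO libraries and 18.7%, 17.9% and 16.6% in Utx WT libraries, so these ranges overlapped.

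**Figure D1:**
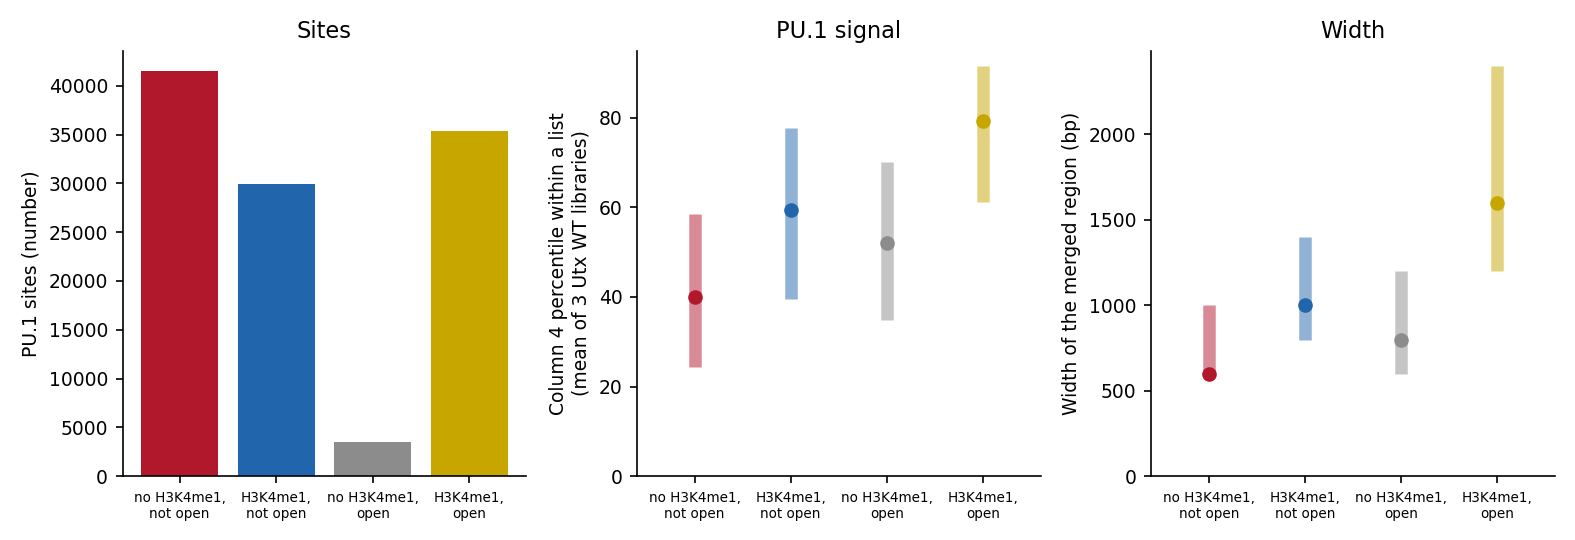
Number, PU.1 rank and width of the 4 classes of autosomal PU.1 sites held by all 3 Utx WT libraries. Dots are medians and thick bars run from the lower to the upper quartile of sites. Sites without H3K4me1 and not open are the most numerous (41518), with the lowest median percentile (39.96) and the smallest median width (599 bp).

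The order of the classes by rank was the same in the Utx KO libraries, which the rule did not use. Among sites with an island there, the median percentile of unmarked closed sites was 52.8, 44.7 and 50.3 in Utx KO replicates 1 to 3, a mean of 49.3 ± 4.13 (SD, n = 3), against 63.6 ± 2.78 for marked closed, 61.2 ± 3.38 for unmarked open and 83.4 ± 1.78 for marked open sites. The differences were -14.3, -12.0 and -34.1 points, each lower in 3 of 3 libraries. By an exact sign-flip permutation test over the 3 libraries, two-sided, each had p = 0.25 (adjusted p = 0.312 over 10 tests), the smallest that 3 libraries allow. By reads per kb the differences were -5.61, -4.75 and -14.4 points, again with the unmarked closed sites lower in 3 of 3 libraries (exact p = 0.25 each).

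Ranked by reads, which add up over a wide region, the strongest site lay on chr15:19708201-19718199, 691995 bp from the cadherin gene Cdh10. It was 9999 bp wide, against a class median of 599 bp, so its rank need not reflect dense binding. It had 2657, 1956 and 2421 reads in Utx KO libraries, against 1428, 1455 and 1590 in Utx WT libraries. The groups did not overlap, but these counts are not scaled for depth. Percentiles within the lists were 99.99 in each Utx KO library and 99.92, 99.86 and 99.81 in Utx WT libraries. The site had no H3K4me1 island and no ATAC peak in any library. The next strongest, on chr10:68396601-68398599, lay 32357 bp from Cabcoco1 with 810, 662 and 652 reads in Utx KO libraries, against 747, 828 and 765 reads in Utx WT libraries. A site within the sodium channel gene Scn11a (chr9:119817601-119818999) had 673, 561 and 646 reads in Utx KO libraries, against 735, 744 and 732 reads in Utx WT libraries. Every Utx KO count was lower, but these counts are not scaled for depth and the site was picked by its Utx WT rank. Its percentiles within the lists overlapped, with 96.8, 96.8 and 97.2 in Utx KO and 98.5, 97.7 and 96.7 in Utx WT libraries. Sites near Tox, a regulator of T cell development, 162044 bp away, and near Htr1f, a serotonin receptor gene, 21417 bp away, were also among the 8 strongest. The site near Htr1f and another near Antxr2 had an H3K4me1 island in Utx KO replicate 2, but not in replicate 1.

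Values at the edges of the rule were as follows. The 458 sites with a gap of at most 200 bp to the nearest Utx WT H3K4me1 or ATAC interval had a median percentile of 34.9, and 856 sites that such intervals overlapped by 1 to 200 bp had 34.0. A further 12668 unmarked closed regions had an island in 2 of 3 Utx WT libraries, with a median percentile of 13.8 and a median width of 399 bp.

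Unmarked closed sites lay at a median of 35127 bp from the nearest gene end, against 7818 bp for marked open sites. A share of 46.0% (19089 sites) lay within the span of a protein-coding gene, against 59.2% of marked closed, 47.2% of unmarked open and 68.5% of marked open sites, and 3.12% (1294) lay at a gene end, within 1 kb on either side, against 6.34%, 6.92% and 29.3% of marked closed, unmarked open and marked open sites. The median distance to the nearest gene was 3219.5 bp, while the median marked site lay inside a gene. Over 100 kb from any gene lay 7043 sites (17.0%), against 6.12%, 11.6% and 4.06% of marked closed, unmarked open and marked open sites. The gene spans used for these distances were read without strand, so starts and stops of genes were not separated in these shares. Wider regions reach a gene end more easily, and the part of width in these shares was not tested. The median gap was 11802 bp to an H3K4me1 island and 16246 bp to an ATAC peak, and 2311 sites (5.57%) had an H3K4me1 island within 1 kb.

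By chromosome the share of sites that were unmarked and closed ran between 30.1% on chromosome 11 and 42.6% on chromosome 3. Of 21184 stretches between neighbouring H3K4me1 or ATAC intervals that held such a site, 12080 held a single site and 193 held at least 10. Thus 12080 of the 41518 sites were alone in their stretch, and most sites shared a stretch with another. The stretches with at least 10 held 2250 sites. A stretch of 558 kb on chr17:66714000-67272200, near the phosphatase gene Ptprm, held 20 sites, of which 11 had PU.1 in all 3 Utx KO libraries and 1 in none. Another of 2604 kb on chr8:42194600-44798400, near Fat1, held 18 sites, of which 11 had PU.1 in all 3 Utx KO libraries and 4 in none.

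Unmarked closed sites were nearest to 10396 genes, and 1007 genes with at least 10 sites each took 39.2% of them. Zeb2, a zinc finger repressor of transcription that works in many blood lineages, had most, 72 of 121 PU.1 sites. Adgrl2, an adhesion receptor, followed with 68 of 131, Cited2, a coregulator that binds CBP and p300, with 58 of 117, and the transcription factor gene Sox5 with 53 of 80. The cAMP phosphodiesterase gene Pde4d had 52 of 121, the E protein gene Tcf4 51 of 90, the polarity gene Pard3b 47 of 62, the GATA-type repressor gene Trps1 47 of 80, the focal adhesion gene Lpp 45 of 106, Sugct 45 of 59 and Fggy 44 of 68. For Zeb2 and Cited2 none of the sites lay inside the gene. For Sox5, Pde4d and Pard3b, 37, 41 and 37 did, in gene spans of 954 kb, 1302 kb and 1004 kb.

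By gene list, the share of PU.1 sites that were unmarked and closed differed widely around 37.6% over all sites. Ion channel and glutamate receptor genes had 131 of 160 (81.9%) and neuronal adhesion and synapse genes 330 of 419 (78.8%), muscle genes 58 of 102 (56.9%) and liver genes 20 of 38 (52.6%). Among blood lineages, the share was 46.7% for B cell genes (50 of 107), 46.5% for T and NK cell genes (53 of 114), 43.0% for erythroid genes (83 of 193), 32.9% for stem cell genes (80 of 243) and 30.0% for monocyte and macrophage genes (77 of 257). It was 25.7% for mast cell and basophil genes (29 of 113), 19.3% for megakaryocyte genes (33 of 171) and 10.3% for granulocyte genes (8 of 78). Stroma and endothelium genes had 37.8% (70 of 185), ETS family genes 24.5% (62 of 253), genes of PU.1 partners 18.8% (69 of 368) and housekeeping genes 12.1% (7 of 58). Lists were chosen with earlier results known and no test was made. The median gap of the sites to H3K4me1 also differed, 142202 bp at neuronal adhesion genes against 16802 bp at monocyte and macrophage genes, and gene size differs between lists. Their part was not tested.

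**Figure D2:**
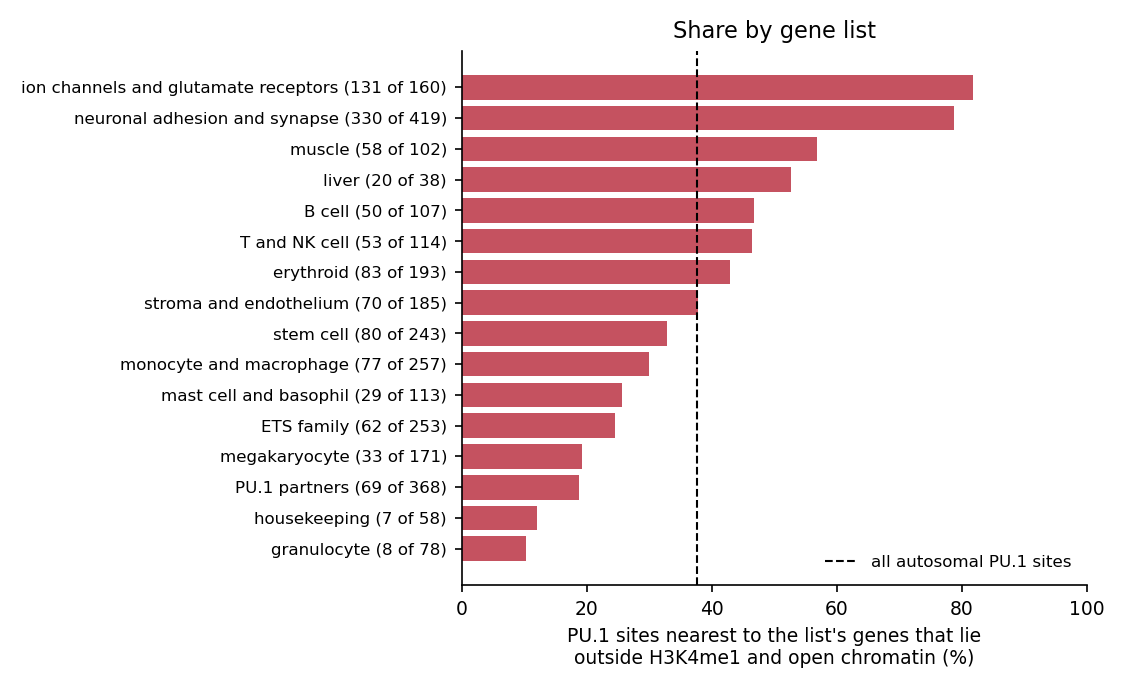
Share of the PU.1 sites nearest to each list's genes that lie outside H3K4me1 and open chromatin, in percent, with the number of such sites and of all sites in brackets. The dashed line is the share over all autosomal sites (37.6%), and neuronal lists stand at 81.9% and 78.8% while granulocyte genes stand at 10.3%.

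Single genes of these lists showed the same range. The neuronal genes Dlg2, a postsynaptic scaffold, and Cntnap2, a cell adhesion gene, had 36 of 49 and 28 of 32 sites unmarked and closed. The glutamate receptor genes Grm8 and Grm5 had 23 of 29 and 14 of 19, and the potassium channel gene Kcnq3 had 18 of 23. Among 6940 genes with at least 5 sites, 204 had every site in this class, led by the synaptic adhesion gene Lrrc4c (16 of 16), the corepressor gene Runx1t1 (16 of 16) and the phosphatase gene Ptprd (15 of 15). By contrast 940 such genes had none. Runx1, a master regulator of blood stem cells, had 16 of 99, and Kit, the stem cell factor receptor of stem and mast cells, 8 of 39.

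Genes of the blood lineage lists varied widely among themselves. Those named here are among the 3 with most such sites in their list, so they need not stand for its other genes. The B lineage factor gene Ebf1 had 12 of 19, the B cell adaptor gene Bank1 19 of 33 and Pax5 5 of 9, while Gata3, a T cell and innate lymphoid factor, had 25 of 35 and the T lineage factor gene Bcl11b 4 of 4. Cd28, also of the T and NK cell list, had 6 of 23. The endotoxin receptor gene Tlr4 had 24 of 33, F13a1 of macrophages and platelets 20 of 41, and Ly86 18 of 60. The whole monocyte and macrophage list had 77 of 257, with a median of 2 such sites per gene. The globin repressor genes Bcl11a and Sox6 had 34 of 81 and 25 of 44. Stem cell regulators Meis1, Mecom and Mllt3 had 18 of 45, 17 of 30 and 14 of 39. Among ETS factors, Ets1 had 18 of 54, Ets2 12 of 25 and Etv1 10 of 19. Fli1, an ETS factor named from the megakaryocyte list, had 3 of 26.

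Whether PU.1 stays at these sites without Utx was read in the Utx KO libraries. PU.1 islands were present at 95.4%, 87.4% and 92.5% of unmarked closed sites in Utx KO replicates 1 to 3. All 3 Utx KO libraries had an island at 35092 sites (84.5%, against 88.2% of all PU.1 sites), 2 had it at 3615, 1 at 1783 and none at 1028 (2.48%, against 2.05% of all PU.1 sites). All 3 held 95.0% of marked open and 85.2% of marked closed sites. Per Utx KO library, unmarked closed minus marked open sites came to -5.64 points (lower in 3 of 3 libraries, exact sign-flip permutation p = 0.25), minus unmarked open sites to -1.50 points (lower in 3 of 3, exact p = 0.25) and minus marked closed sites to 0.172 points (lower in 1 of 3, exact p = 0.75), the last with a sign that turned under 2 other settings. The shares moved with list length, which was 166141, 134140 and 156454 autosomal islands in Utx KO replicates 1 to 3, and the part of list length was not tested. At sites held, the median was 89, 73 and 80 reads in Utx KO libraries, against 68, 75 and 69 reads over all these sites in Utx WT libraries. The sites that no Utx KO library held were weak in Utx WT, with a median percentile of 17.4, against 44.6 for those held by all 3.

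Sites chosen on 3 libraries have an island in those 3 by construction, so each Utx WT library was also left out of the rule in turn and read like a Utx KO library. With sites defined from the other 2 Utx WT libraries, Utx KO libraries held 93.5%, 84.2% and 90.2% of unmarked closed sites, averaged over the 3 definitions, and the left-out Utx WT libraries held 91.1%, 92.9% and 88.6%. The groups overlapped, with means of 89.3 ± 4.72% in Utx KO and 90.8 ± 2.16% in left-out Utx WT libraries (SD, n = 3 each), a difference of -1.54 points (exact permutation test, two-sided, p = 0.7, adjusted p = 0.8 over 32 tests). For marked closed sites the means were 89.6 ± 4.07% in Utx KO and 95.1 ± 1.73% in left-out Utx WT libraries, a difference of -5.44 points (exact p = 0.2). An exact permutation test of 3 against 3 libraries cannot go below p = 0.1. Each Utx KO value averages the 3 site definitions, while each left-out Utx WT value rests on a single definition made from the other Utx WT libraries. The values are thus not fully exchangeable, so SDs and p-values of this left-out design, here and below, are only a description.

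At equal rank by reads, the share of low-ranked sites with PU.1 in Utx KO was higher for unmarked closed than for marked closed sites. Between percentiles 20 and 40 of the Utx WT lists, Utx KO libraries held 94.7%, 83.6% and 90.6% of 13406 unmarked closed sites and 86.8%, 68.3% and 78.1% of 5762 marked closed sites. The unmarked closed sites were higher in 3 of 3 libraries, by 11.9 points on average (7.95 to 15.3, exact sign-flip permutation p = 0.25, the smallest possible). Below percentile 20 the difference was 15.3 points, between 40 and 60 it was 3.71 and between 60 and 80 it was 0.205. Ranked by reads per kb, the difference was 6.77 points below percentile 20 and 3.81 points between 20 and 40, with 3 of 3 libraries higher each time. It was 0.894 points between 40 and 60, with 2 of 3 higher, and -0.102 and -0.0673 points between 60 and 80 and above 80, with 3 of 3 lower. Against marked open sites at percentiles 20 to 40 the direction depended on the ranking, 9.21 points by reads but -7.52 points by reads per kb, and likewise against unmarked open sites, 3.80 points by reads but -1.50 points by reads per kb.

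The left-out Utx WT libraries showed less of this difference. At percentiles 20 to 40 of the 2 defining libraries, unmarked closed minus marked closed sites came to 8.26, 15.2 and 12.5 points in Utx KO libraries, against 5.45, 1.06 and -0.0269 points in left-out Utx WT libraries. The groups did not overlap, with a difference of 9.82 points (exact permutation test, p = 0.1, the smallest possible, adjusted p = 0.32 over 32 tests). In the classes themselves, unmarked closed sites were held at 88.2 ± 6.00% in Utx KO and 92.1 ± 2.57% in left-out Utx WT libraries (exact permutation p = 0.4), and marked closed sites at 76.3 ± 9.41% in Utx KO and 89.9 ± 4.07% in left-out Utx WT libraries (exact permutation p = 0.1, SD, n = 3 each). Ranked by reads per kb the difference was 8.56 points (exact permutation p = 0.1). This comparison was added after the values of the first had been seen, and it does not pass the adjustment. With 3 against 3 libraries no adjusted p can fall below 0.1, so the adjustment could not decide the question.

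**Figure D3:**
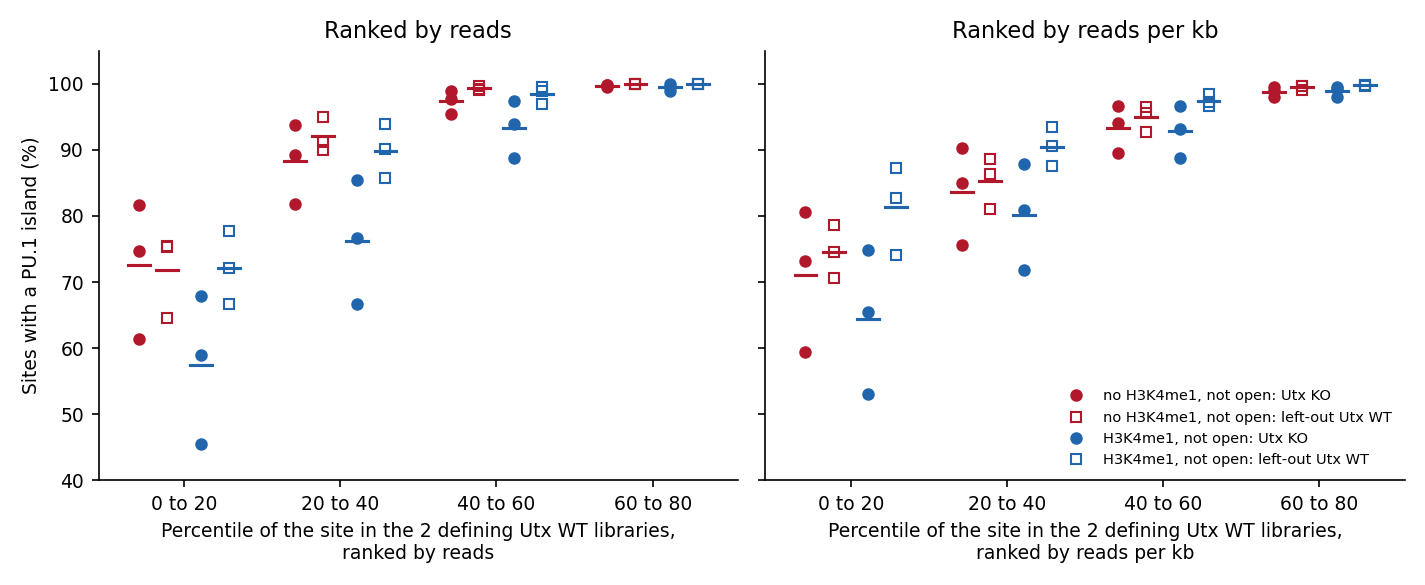
Share of PU.1 sites with an island, in percent, by percentile of the site in the 2 defining Utx WT libraries, for sites without H3K4me1 and not open (red) and with H3K4me1 and not open (blue). Filled circles are the 3 Utx KO libraries, open squares the 3 left-out Utx WT libraries and short lines their means; at percentiles 20 to 40 by reads the Utx KO means are 88.2% and 76.3%, and the left-out Utx WT means 92.1% and 89.9%.

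Retention in Utx KO also differed with distance from marked or open chromatin. Over 50 kb from any Utx WT H3K4me1 or ATAC interval, Utx KO libraries held 97.3%, 91.7% and 95.7% of 6040 unmarked closed sites, and up to 1 kb from it 94.2%, 84.5% and 90.2% of 2963 sites. The distant sites were higher in 3 of 3 libraries, by 5.27 ± 2.06 points (SD, n = 3, exact sign-flip permutation p = 0.25), though their median percentile was lower, 35.0 against 39.4. Among sites at percentiles 20 to 40 the difference was 8.44 ± 3.80 points. In the left-out design it was 4.22, 8.55 and 6.86 points in Utx KO libraries and 6.40, -0.184 and -8.00 points in left-out Utx WT libraries, which overlapped (exact permutation p = 0.2, adjusted p = 0.32 over 32 tests). Replicates of Utx WT thus did not share a direction.

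**Figure D4:**
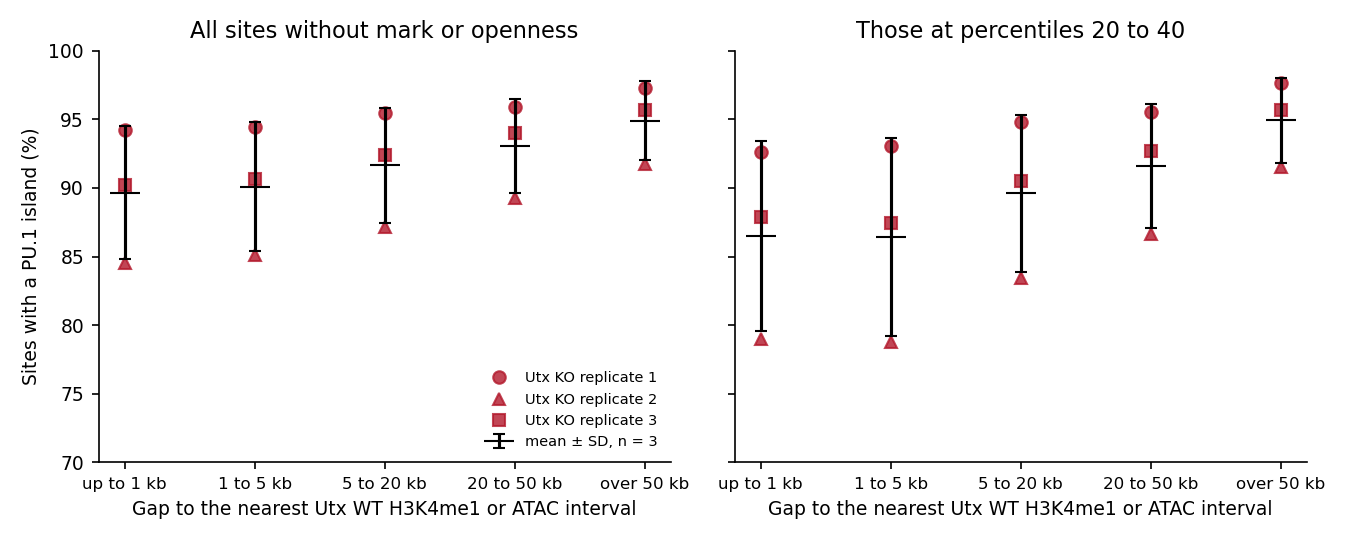
Share of PU.1 sites outside H3K4me1 and open chromatin that have a PU.1 island in each Utx KO library, in percent, by gap to the nearest Utx WT H3K4me1 or ATAC interval, for all such sites and for those at percentiles 20 to 40. Crossbars are mean ± SD of 3 libraries; the vertical axis starts at 70%, and the mean over all sites is 89.6% up to 1 kb and 94.9% over 50 kb.

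Genes with most sites lacking PU.1 in all Utx KO libraries were Fat1, an atypical cadherin, with 5 of 23 unmarked closed sites, and with 4 each the calcium channel gene Cacna1d (of 26), the ephrin ligand gene Efna5 (of 40), the small GTPase gene Rnd3 (of 39), the adhesion gene Sdk2 (of 15) and Zeb2 (of 72). These genes were picked by that count, and the share is 2.48% over all unmarked closed sites and 2.05% over all PU.1 sites. The strongest such site, on chr2:51207001-51207599 and 57890 bp from Rnd3, had no island in Utx KO libraries, against 162, 169 and 130 reads in Utx WT libraries. A site within the kinesin gene Kif6 (chr17:49899801-49900799) had none in Utx KO libraries, against 145, 155 and 135 reads in Utx WT libraries, and a site within Lypd6b (chr2:49876801-49877999) none in Utx KO libraries, against 87, 165 and 165 reads in Utx WT libraries. The Lypd6b site had an H3K4me1 island in Utx KO replicate 1. Of the 50 sites without PU.1 in Utx KO that stood at percentile 40 or above, 9 lay on chromosome 2 between 45 and 60 Mb, a span picked after these values were seen, which holds 0.9996% of all unmarked closed sites. There, 23 of 415 sites (5.54%) had no island in Utx KO, against 2.48% of all unmarked closed sites.

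H3K4me1 appeared at few of these sites in Utx KO. Utx KO libraries had an H3K4me1 island at 3.14% and 4.11% of unmarked closed sites, and both had it at 585 sites (1.41%, against 1.9% of all unmarked PU.1 sites). With Utx WT replicate 1 left out of the rule, 3.42% and 4.64% of sites were marked in Utx KO libraries, against 2.79% in that Utx WT library. With Utx WT replicate 2 left out, 7.92% and 11.5% were marked in Utx KO libraries, against 18.6% in that Utx WT library. The left-out Utx WT values thus lay on both sides of the Utx KO values, and with 2 libraries each no test was made. The 585 sites had a higher PU.1 rank than the class, a median percentile of 47.5 in Utx WT, a median gap of 4602 bp to H3K4me1, and 548 (93.7%, against 84.5% of the class) had PU.1 in all 3 Utx KO libraries. Among all unmarked closed sites at percentiles 40 to 60, the share was 94.8%. The strongest lay 478320 bp from the adhesion gene Alcam (chr16:52931401-52932999), with 700, 563 and 616 PU.1 reads in Utx KO libraries, against 604, 614 and 650 reads in Utx WT libraries. Others lay at the end of the neuronal gene Plppr4 (chr3:117319401-117320599), 53534 bp from Sh3bp4 and 95926 bp from Qrfpr. By list, the mark was in both Utx KO libraries at 6 of 50 sites of B cell genes, including 1 each at Ebf1 and Bank1, and at 0 to 2 sites in each of the other 15 lists, such as 2 of 53 for T and NK cell genes, 1 of 80 for stem cell genes, 1 of 330 for neuronal adhesion and synapse genes and 0 of 83 for erythroid genes.

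Openness at these sites stayed rare in every ATAC group. Utx KO libraries with empty vector had a peak at 0.325% and 0.320% of unmarked closed sites, and both at 65 sites (0.157%, against 0.213% of all closed PU.1 sites). Leaving out each Utx WT empty library of the rule in turn, these Utx KO libraries had a peak at 0.329% to 0.490% of sites, and the left-out Utx WT libraries at 0.338% to 0.928%. Within set B, where Utx KO cells were profiled, the left-out Utx WT libraries had 0.513% and 0.665%, above the Utx KO values under the same definitions, 0.427% and 0.431%, and 0.469% and 0.490%. Those Utx WT lists were also longer, with 49696 and 49704 autosomal peaks, against 39380 and 39925 in Utx KO with empty vector. The part of list length was not tested. The strongest of the 65 sites lay within the sodium channel gene Scn3a (chr2:65481001-65481999), with 473, 384 and 426 PU.1 reads in Utx KO libraries, against 562, 552 and 548 in Utx WT libraries. Another lay within Fggy (chr4:95923801-95925399), 1540 bp from an end of that gene. Of the 65 sites, 61 (93.8%, against 84.5% of the class) had PU.1 in all 3 Utx KO libraries and 1 had H3K4me1 in both. Their median percentile in Utx WT was 47.9, and 94.8% of all unmarked closed sites at percentiles 40 to 60 had PU.1 in all 3 Utx KO libraries.

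ATAC peaks were also rare at these sites in cells with guides against remodellers. In Utx KO cells Smarca4 gRNA libraries had a peak at 0.195% and 0.0819% of sites, a mean of 0.138 ± 0.080%, against 0.323 ± 0.0034% with empty vector (SD, n = 2 each), a difference of -0.184 points (exact permutation p = 0.3333, the smallest that 2 against 2 allows). The guide libraries had fewer peaks in all, 35031 and 29096 on autosomes, against 39380 and 39925 with empty vector. Both Smarca4 gRNA libraries of Utx KO cells had a peak at 15 sites (0.0361%, against 0.056% of all closed PU.1 sites). In Utx WT cells both Smarca4 gRNA libraries had a peak at 20 sites (0.0482%, against 0.109% of all closed PU.1 sites). Both Chd4 gRNA libraries had a peak at 1 site (0.00241%, against 0.0098% of all closed PU.1 sites), within Bean1 (chr8:104175801-104176399). The strongest of the 20 sites lay 2160 bp from Rbm45 (chr2:76367001-76367799), with 354, 391 and 380 PU.1 reads in unedited Utx WT libraries. A site within the synaptic gene Lrrc7 (chr3:158076601-158078199) was also open in both, and lay 59 bp from a Utx WT ATAC peak. With libraries left out in turn, Smarca4 gRNA in Utx WT gave 0.2496% to 0.486% and Chd4 gRNA 0.0263% to 0.0978%. The Chd4 gRNA lists held 33682 and 24268 autosomal peaks, against 47591 and 40579 in set A with empty vector. Smarca4 gRNA lists of Utx WT held 41017 and 45074, against 49696 and 49704 in set B with empty vector. How much list length matters here was not tested.

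**Figure D5:**
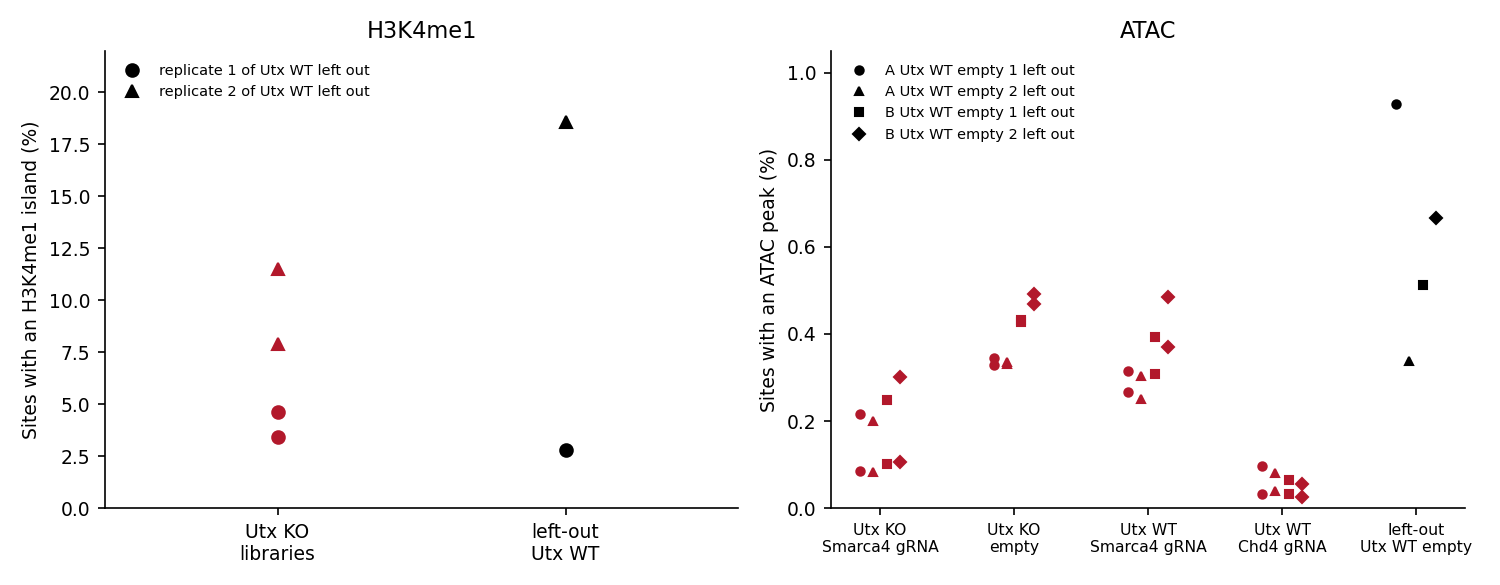
Share of PU.1 sites outside H3K4me1 and open chromatin that have an H3K4me1 island (left) or an ATAC peak (right), in percent, with each Utx WT library left out of the rule in turn. Symbols mark which library was left out; left-out Utx WT libraries (black) stand at 2.79% and 18.6% for H3K4me1 and at 0.338% to 0.928% for ATAC.

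Of the 41518 sites, 32717 (78.8%) had PU.1 in all 3 Utx KO libraries with neither an H3K4me1 island nor an ATAC peak in any Utx KO library with empty vector. The rule chose sites that were unmarked and closed in Utx WT, and this joint state was not counted in the other classes. PU.1 in all 3 Utx KO libraries, whatever the mark or openness, was at 84.5% of these sites and at 88.2% of all PU.1 sites. When the same rule was applied to the Utx KO libraries, 56110 of 117929 sites (47.6%) were unmarked and closed, against 42833 of 110341 (38.8%) for Utx WT with ATAC set B alone, so that both used 2 ATAC libraries. Of the Utx WT set, 78.2% met the Utx KO set, and 59.9% of the Utx KO set met the Utx WT set. Of 22482 sites of the Utx KO set alone, 9292 had an H3K4me1 island in Utx WT, 595 were unmarked but open there, and 12595 were unmarked and closed there with PU.1 in fewer than 3 Utx WT libraries. H3K4me1 lists were shorter in Utx KO, with 43192 and 42821 autosomal islands, against 50620 and 53534 in Utx WT. ATAC lists with empty vector were shorter too, with 39380 and 39925 autosomal peaks in Utx KO, against 49696 and 49704 in Utx WT of set B. The part of list length in these shares was not tested. Marked open sites were 19.0% of the Utx KO sites, against 24.9% in Utx WT.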

How the data were processed

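Lineage-negative marrow progenitors were profiled by ChIP-seq and ATAC-seq in 24 samples, 22 of them with a peak list. The 2 input libraries were not used. Per the submitters' processing notes, Bowtie2, SICER, Bowtie and MACS2 were used with build mm10, and for set A Bowtie and MACS2 only, without versions or roles. The deposited ChIP lists place islands on 200 bp steps, each with a whole-number count, taken as the read count of that island in its library. The authors did not scale it per the file values, and it was used only to rank islands within a list, as reads or reads per kb. Island reads are not library depth. The deposited ATAC lists give only start and end, so their depth is unknown and no interval can be given. Lists were called per library.

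Islands that overlap or touch were merged, and 1 bp of overlap counted as shared. Of 157907 merged Utx WT regions, 110341 had an island in all 3 libraries, 20319 in 2 and 27247 in 1. A site's rank is that of its strongest island. Gaps and distances are differences between the nearest coordinates. Each site was given the nearest gene among 20665 protein-coding RefSeq spans (GRCm38.p6), the smallest on ties. Of 216 genes in 16 lists 210 were matched, 1 by an older symbol.

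Members and gene lists were chosen with earlier results of these data known. Genes named are the 12 with most sites, the 5 with most sites lacking PU.1 in Utx KO and the top 3 per list, and regions named are the strongest of each set; some that this rule picks are not reported here. Tests were exact permutation tests over libraries, two-sided, with Benjamini-Hochberg adjustment within families of 10 and 32; the sign-flip tests at equal rank and by gap are unadjusted. Same-numbered Utx KO and Utx WT libraries did not deviate together (r = -0.0826, 0.0188 and -0.0640 over 35092 sites). Libraries with unlike numbers had r from -0.0300 to 0.0943. These values cannot tell whether numbers pair the libraries, so they were treated as unpaired, with the replicate block as an alternative. Alternatives were the upper 50% of each ChIP list, 50% cover, a distance of 1000 bp, each ATAC set alone, chromosome X added, reads per kb, and each library left out. The rule was tested on simulated data with planted sites. The tools were scipy 1.17.1, pandas 2.3.3, numpy 2.4.6 and matplotlib 3.10.9 under Python 3.11.15.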

Additional observations from a re-analysis of the deposited data

How the results depend on the processing

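With the upper 50% of every ChIP list, 18169 sites remained in the class, 0.242% were open in both Utx KO empty libraries, 0.171% in both Utx WT Smarca4 gRNA libraries, 3.93% lay within 1 kb of a gene end, and the median gene distance was 2228 bp. Under it the difference in PU.1 retention between unmarked closed and marked closed sites in Utx KO (0.172 points) turned to -0.0138. When 50% of a region had to be covered, that difference was -2.10 points, 0.0466% of sites were open in both Utx KO empty libraries and 3.52% lay at a gene end. Openness in both Utx KO empty libraries was 0.153% with no H3K4me1 or ATAC peak within 1000 bp, 0.177% with set B alone and 1.18% with set A alone. With set B alone, 0.476% were open in both Chd4 gRNA libraries, and with set A alone 1.001% in both Smarca4 gRNA Utx WT libraries. With 1 set alone, fewer ATAC libraries define closed sites by construction, and the cause of the other shifts was not tested.

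Leaving out 1 library at a time, the share with PU.1 in all Utx KO libraries ran between 80.01% and 90.7% (without Utx KO replicate 2), H3K4me1 in both Utx KO libraries between 1.36% and 5.41% (without H3K4me1 Utx WT replicate 2, which also gave 50984 sites and a median gene distance of 2174.5 bp, the highest being 3631.5 bp). PU.1 in no Utx KO library ran between 2.47% and 5.32%, being highest where 2 Utx KO libraries remained. Openness ran between 0.144% and 0.325% in Utx KO empty, 0.0424% and 0.291% in Smarca4 gRNA Utx WT and 0.00219% and 0.0554% in Chd4 gRNA libraries, the upper values where a single library was read. The gene end share ran between 2.96% and 3.39%. Retention against marked closed sites ran between -0.565 and 0.457 points, with -0.438, -0.565, -0.124, -0.0434 and -0.0285 below 0, so it has no stable sign. Retention at percentiles 20 to 40, Utx KO minus left-out Utx WT, ran between 8.23 and 11.7 points. With the replicate block, the values stayed -0.184, -1.54 and 9.82 points, with exact permutation p of 0.5, 1 and 0.25, and no call changed. In all, with a library left out 161 values stayed within the spread or on the same side, 20 moved and 5 reversed, and under other settings 50 stayed, 12 moved and 2 reversed.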
